A study of Arabidopsis thaliana with 18 samples.

Results

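Wild-type Arabidopsis thaliana leaves sampled 6 h after wounding were compared with wild-type leaves sampled 1 h after wounding. The arrays were chosen by their titles, which name Col-0, wounding, the hour and a letter, so 6 of the 18 Affymetrix ATH1 arrays of the series were compared, lettered A, B and C in each group. The 3 arrays of unwounded Col-0 leaves entered the model as well, to estimate the spread and to show where an unwounded leaf lay. Col-0 is the Columbia wild type, and the labels name no transgene in these 9 samples. The other 9 arrays, titled with a single line name, came from plants that over-express the potato zinc finger gene StZFP2. They were used here only in an alternative model. The labels give the tissue as leaf and name the treatment and time, but not the age of the plants, the way of wounding or the hour at which leaves were taken. There is no unwounded group for 6 h, so hours after wounding and time of day cannot be told apart in any result below.

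A wound to a leaf sets off calcium, electrical and peptide signals within minutes, followed by a burst of jasmonate, the hormone that removes JAZ repressors and releases MYC transcription factors. The first genes to respond are mostly transcription factors, kinases and calcium sensors, whose transcripts tend to be short-lived, and enzymes and defence proteins follow. Many leaf genes also follow the circadian clock, in which morning MYB factors and evening pseudo-response regulators repress each other in turn, and starch made by day is degraded at night.

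The 1 h and 6 h groups separated clearly on the arrays. Over the 14349 probe sets tested, the correlation of log2 signals was 0.974 to 0.980 among the 1 h arrays and 0.975 to 0.978 among the 6 h arrays, against 0.847 to 0.872 between an array of one group and an array of the other. Unwounded arrays correlated with 1 h arrays at 0.931 to 0.965 and with 6 h arrays at 0.884 to 0.914. Among themselves they correlated at 0.948 to 0.971, a range that overlaps the one with 1 h arrays, so these groups were not clearly separate. These correlations run across genes, which are no independent replicates, and serve as a description. The 1 h arrays had a median signal of 127.1 to 135.7 and the 6 h arrays one of 146.8 to 152.8. The ratio of 3' to 5' probe signals of the actin control, a measure of RNA integrity, ranged over 7.28 to 10.7 in the 1 h arrays and over 4.12 to 6.97 in the 6 h arrays, and its part in the results was not tested. Whether the 3 arrays of a group stand for separate plants is not stated, so the p-values reflect the spread of these arrays and that spread may be technical.

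At 6 h, 6276 of the 14349 probe sets (43.7%) differed from 1 h at an adjusted p below 0.05 (limma, two-sided, Benjamini-Hochberg adjustment over all probe sets tested). Of these, 3726 (26% of those tested) were higher and 2550 (17.8%) lower. A change of at least 2-fold was seen for 2695 probe sets (18.8%), made up of 1504 higher probe sets (10.5%) and 1191 lower ones (8.3%), and 8150 probe sets (56.8%) had 6 h signals that did not overlap the 1 h signals. Large falls outnumbered large rises, with 395 probe sets lower and 334 higher by at least 2 on the log2 scale, and 36 lower and 26 higher by at least 4. Some of these sizes rest on very low signals, as for WRKY30 below, where only a bound on the fold can be given. The share of calls that were higher depended on the scaling of the arrays, at 59.4% with the deposited scaling, 52.1% with quantiles equalised and 41% with array medians subtracted. The median difference over all probe sets was 0.13, 0.03 and -0.07 on the log2 scale under these 3 scalings, so list medians below are to be read against 0.13 and small changes depend on the choice. Counts in the lists below are likewise to be read against the 26% higher and 17.8% lower over all probe sets. Unless given as a fold, a change below is a log2 difference of 6 h minus 1 h with its standard error from this model (n = 3 arrays in each group).

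**Figure D1:**
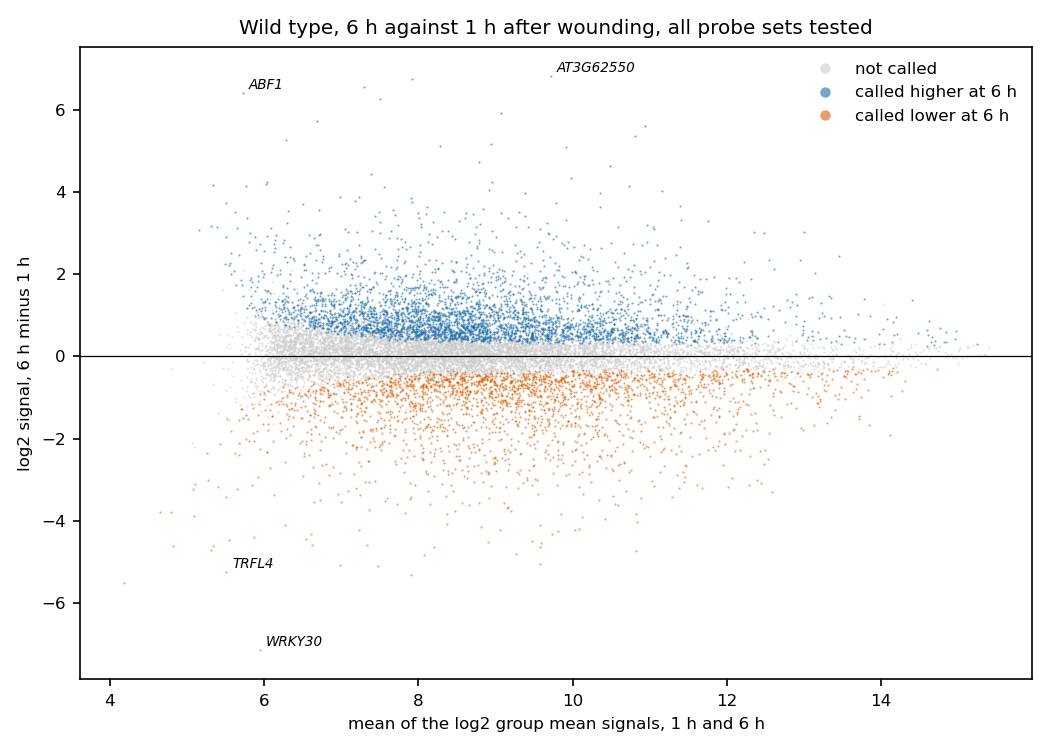
Log2 signal difference between 6 h and 1 h (vertical axis) against the mean of the log2 group mean signals (horizontal axis), 1 point for each of the 14349 probe sets tested, coloured by call. Calls in both directions run over the whole range of signal, 3726 higher and 2550 lower, and WRKY30 and AT3G62550 mark the extremes.

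Where unwounded leaves lay was asked for the genes that changed at least 2-fold with no overlap of arrays. Among the 1449 such genes that were higher at 6 h, the unwounded signals overlapped those of 1 h in 844 and lay between the groups in 388, while they overlapped those of 6 h in 102. The genes that were lower at 6 h were spread differently. Of 1145, the unwounded signals lay between the groups in 488, overlapped those of 1 h in 421 and overlapped those of 6 h in 155. A further 24 were above both wounded groups in unwounded leaves. These positions are a description of 9 arrays and carry no test.

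The largest rise was that of AT3G62550, for which the files used here give no gene name. Its signal was 71.7, 74.6 and 89.7 at 1 h, 8584, 10370 and 7971 at 6 h and 237, 138 and 159 in unwounded leaves, a rise of 6.83 ± 0.20 (limma adjusted p = 3.64e-09). All 6 h arrays stood far above all others, and the 1 h arrays were the lowest of the 9. PORB encodes a protochlorophyllide oxidoreductase, the light-driven step of chlorophyll synthesis. PORB (AT4G27440) read 325, 269.7 and 246 at 1 h, 11050, 11560 and 12028 at 6 h and 500.1, 462 and 261 in unwounded leaves, a rise of 5.37 ± 0.21 (limma adjusted p = 1.79e-08). The 6 h signals were within a narrow band, and unwounded and 1 h leaves overlapped. CCL (AT3G26740), a gene named for its likeness to CCR transcripts that cycle with the clock, read 316, 293 and 233 at 1 h, 13968, 16449 and 10732 at 6 h and 1120, 577 and 695 in unwounded leaves, a rise of 5.600 ± 0.23. Here the unwounded arrays lay between the groups.

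MEE14 (AT2G15890), named from an embryo arrest mutant, read 75.00, 77.3 and 53.2 at 1 h, 4380, 5383 and 3004 at 6 h and 142, 70.6 and 39.8 in unwounded leaves and rose by 5.94 ± 0.37. WCRKC1 (AT5G06690), a thioredoxin, read 74.9, 36.1 and 50.3 at 1 h, 1874, 2068 and 1451 at 6 h and 193, 83.5 and 36.1 in unwounded leaves and rose by 5.11 ± 0.47. The unwounded and 1 h signals overlapped for both genes, and no 6 h array came near them. AT3G47160, unnamed in the files, rose by 4.73 ± 0.23 from signals of 90.02, 79.7 and 87.6 at 1 h to 2332, 2525 and 2005 at 6 h. The 15 genes with the largest rises also held PRR5 and PHS2, given below with the clock and starch, and the lipid transfer genes LTP3 and LTP4.

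For 6 of these 15 genes, all signals at 1 h were under the 40th percentile of their arrays, the bound used here for a dim signal, so only a lower limit of the fold is given. AT1G56300 had a mean signal of 24.9 ± 15.6 at 1 h and 2347 ± 431 at 6 h (SD), at least 33.1-fold higher (limma adjusted p = 2.25e-07). AT2G39920 had 16.2 ± 2.38 and 1519 ± 226, at least 21.5-fold higher (limma adjusted p = 1.46e-05). AT5G23240 had 22.5 ± 17.3 and 1458 ± 284, at least 20.5-fold higher (limma adjusted p = 5.05e-06). The files give none of the 3 a name. ABF1 (AT1G49720), a bZIP factor that binds abscisic acid response elements, had 7.06 ± 7.76 at 1 h and 398 ± 20.8 at 6 h, at least 5.68-fold higher (limma adjusted p = 6.9e-05). AT3G46370 had 15.4 ± 16.9 and 399 ± 68.8, at least 5.63-fold higher (limma adjusted p = 4.29e-05). In unwounded leaves these 5 genes were dim too, and none of their unwounded signals reached those of 6 h.

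The largest fall was that of WRKY30 (AT5G24110), a WRKY transcription factor. It read 547, 748 and 658 at 1 h, 1.54, 9.82 and 6.21 at 6 h and 127, 168 and 149.9 in unwounded leaves, and its 6 h signals were all dim, so that it was at least 8.07-fold lower (limma adjusted p = 1.04e-06; 651 ± 100.9 at 1 h and 5.86 ± 4.16 at 6 h). Unwounded leaves stood between the groups, above every 6 h array. Of the next lowest genes, LOX4 (AT1G72520), a lipoxygenase that opens jasmonate synthesis, read 11215, 10341 and 6611 at 1 h, 404, 331 and 303 at 6 h and 2742, 4058 and 4084 in unwounded leaves and fell by 4.74 ± 0.22. RRTF1 (AT4G34410), an ERF factor named for its response to redox signals, read 1224, 1776 and 1363 at 1 h, 72.9, 42.8 and 62.1 at 6 h and 210.4, 365 and 440.5 in unwounded leaves and was at least 17.97-fold lower (limma adjusted p = 2.3e-07; 1454 ± 287 at 1 h and 59.3 ± 15.3 at 6 h). In both genes the 6 h arrays lay below the unwounded ones, with no overlap among the 3 groups.

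Other falls were those of genes whose unwounded signals shared the range of 1 h. MYB47 (AT1G18710), a MYB transcription factor, read 1753, 1155 and 1479 at 1 h, 31.5, 22.9 and 64.3 at 6 h and 1159, 1326 and 1637 in unwounded leaves and was at least 18.03-fold lower at 6 h (limma adjusted p = 1.98e-07; 1462 ± 299 at 1 h and 39.6 ± 21.8 at 6 h). Its unwounded and 1 h signals overlapped. The same overlap held for AT1G26790, at least 1.5-fold lower (120.0 ± 5.98 and 2.75 ± 1.07, limma adjusted p = 1.09e-05). It held for TRFL4 (AT3G53790), a TRF-like DNA-binding gene, at least 3.37-fold lower (278 ± 90.8 and 7.5 ± 3.1, limma adjusted p = 0.000276). ABCB21 (AT3G62150), an ABC transporter, overlapped too and was at least 1.73-fold lower (139.8 ± 26.6 and 5.68 ± 0.8, limma adjusted p = 0.000573). Unwounded signals were spread widely for TRFL4 (21.3, 238 and 330) and ABCB21 (154, 55.5 and 12.8), and in part under the 40th percentile.

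The other 8 of the 15 lowest genes had unwounded signals between the groups. PP2-A5 (AT1G65390), a lectin-like phloem protein, was at least 17.2-fold lower (1394 ± 253 at 1 h and 52.5 ± 22.6 at 6 h, limma adjusted p = 4.15e-07). PP2C5 (AT2G40180), a protein phosphatase, was at least 2.21-fold lower (179 ± 36.7 and 8.8 ± 7.98, limma adjusted p = 0.000214). Its unwounded signals (25.4, 23.3 and 61.3) were dim too, so they cannot be placed above those of 6 h. AT1G22810 was at least 12.99-fold lower (1039 ± 20.3 and 30.5 ± 5.68, limma adjusted p = 3.28e-08). The other unnamed loci kept a measurable signal at 6 h. AT3G01830 fell by 5.04 ± 0.18, AT5G56980 fell by 4.802 ± 0.25 and AT2G24600 fell by 4.64 ± 0.16. The remaining pair, MAPKKK15 and MAPKKK19, is described with the MAP kinases, and the unwounded signals of MAPKKK15 were in part dim.

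**Figure D2:**
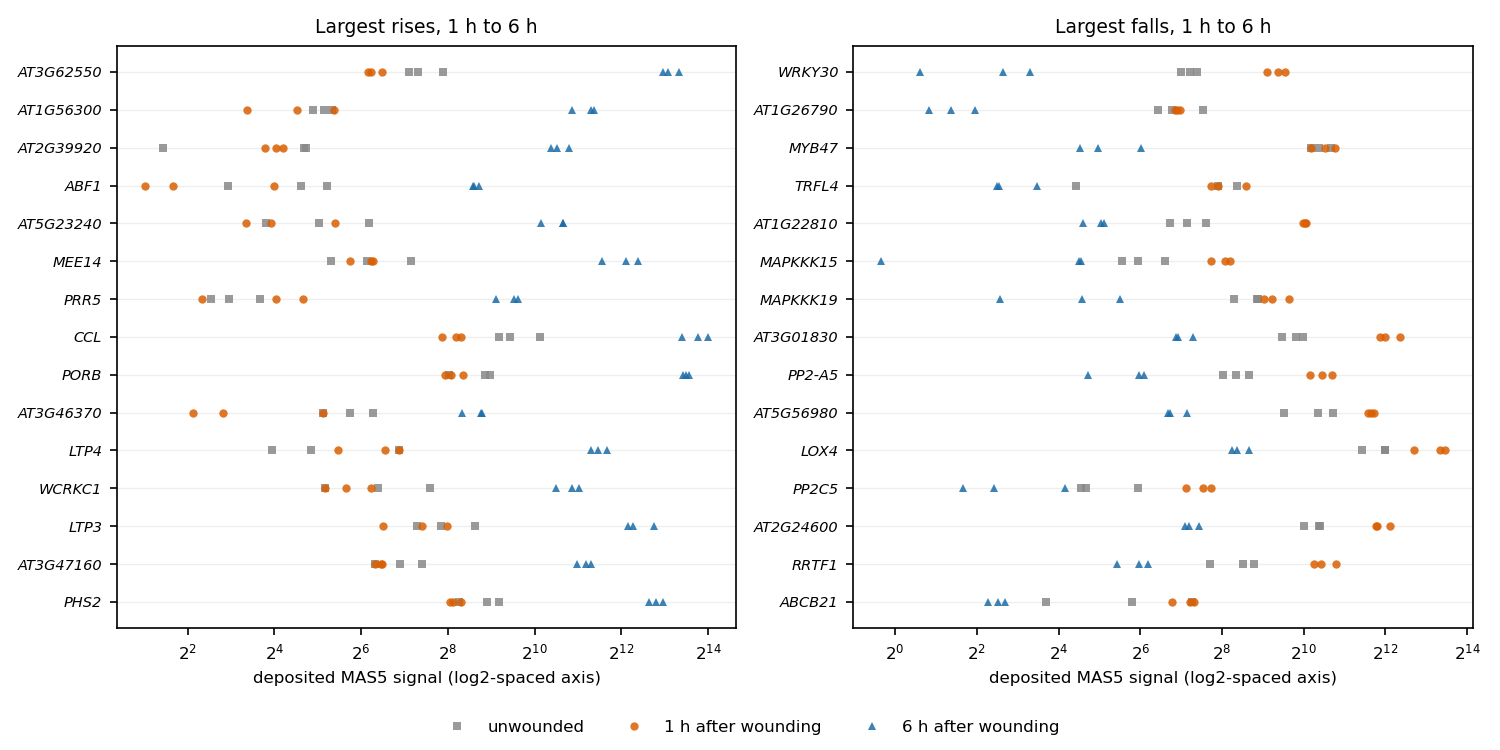
Deposited signal on each Col-0 array (log2-spaced horizontal axis) for the 15 largest rises and the 15 largest falls by log2 difference. Squares mark unwounded, circles 1 h and triangles 6 h. The 6 h arrays stand apart from the 1 h arrays in all 30 genes by the rule that chose them, and the unwounded arrays lie beside the 1 h arrays in most of the rises.

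The circadian clock genes were split by phase. Of 9 morning genes tested, 7 were lower and 1 was higher, with a median of -1.20, and of 13 day and evening genes 9 were higher and 0 lower, with a median of 2.14 (43.7% of all probe sets were called). LHY (AT1G01060), a morning MYB factor at the centre of the clock, read 5322, 7514 and 7632 at 1 h, 604, 353 and 487 at 6 h and 5903, 7025 and 6294 in unwounded leaves and fell by 3.84 ± 0.20 (limma adjusted p = 8.84e-08). Its partner CCA1 (AT2G46830) read 3456, 4422 and 4014 at 1 h, 1358, 858 and 1461 at 6 h and 3500, 5363 and 4158 in unwounded leaves and fell by 1.72 ± 0.21. Unwounded and 1 h leaves overlapped in both, and every 6 h array was below them. RVE8, a related MYB factor that activates evening genes, fell by 1.98 ± 0.22, its coactivators LNK2 and LNK1 by 1.46 ± 0.14 and 0.99 ± 0.18, and RVE1, which links the clock to auxin, fell by 1.105 ± 0.18. RVE2 was dim at 6 h and was not called with all 18 arrays (adjusted p = 0.129). RVE4 differed by -0.25 ± 0.13 and was not called. RVE7 (AT1G18330), a MYB factor of the same family, went the other way, with 159.7, 114 and 158 at 1 h, 545, 835 and 698 at 6 h and 295, 264 and 274 in unwounded leaves, a rise of 2.26 ± 0.19. The unwounded arrays of RVE7 lay between the groups.

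Among the evening genes, PRR5 (AT5G24470), a pseudo-response regulator that represses CCA1 and LHY, read 16.5, 25.1 and 5.06 at 1 h, 732, 780.0 and 552 at 6 h and 5.8, 12.8 and 7.76 in unwounded leaves and was at least 9.72-fold higher (limma adjusted p = 1.47e-05; 15.6 ± 10.1 at 1 h and 688 ± 120.1 at 6 h). GI (AT1G22770), which controls flowering and the stability of clock proteins, read 182, 243 and 276 at 1 h, 1158, 1134 and 948 at 6 h and 189, 319 and 396 in unwounded leaves and rose by 2.23 ± 0.25. PRR7 (AT5G02810) read 216, 265 and 275 at 1 h, 933, 1349 and 1065 at 6 h and 314, 335 and 231 in unwounded leaves and rose by 2.14 ± 0.19. In each of the 3 genes the 6 h arrays were the highest and the other groups overlapped. The evening complex genes ELF4 and ELF3 were dim at 1 h and at least 4.49-fold and 3.2-fold higher at 6 h (25.4 ± 10.5 and 324 ± 103 for ELF4, 41.3 ± 16.01 and 226 ± 36.97 for ELF3, limma adjusted p = 1.23e-05 and 0.000211), and PRR3 at least 5.41-fold (48.9 ± 17.9 and 379 ± 29.9, limma adjusted p = 0.000233). LUX, the third member of the complex, was not called at 1.12 ± 0.60. GRP7 (AT2G21660), an RNA-binding protein whose transcript peaks in the evening, read 631, 748 and 884 at 1 h, 11470, 10166 and 7246 at 6 h and 488, 755 and 879 in unwounded leaves and rose by 3.66 ± 0.23, and its relative GRP8 rose by 1.31 ± 0.12. TOC1 (AT5G61380) rose by 0.72 ± 0.25 (limma adjusted p = 0.032), but was not called after quantile normalization (adjusted p = 0.107), with array medians subtracted (adjusted p = 0.112), or without 1 h array A or C or 6 h array A or B (adjusted p = 0.128, 0.0801, 0.0966 and 0.119). With no filter TOC1 had an adjusted p of 0.066. With all 18 arrays 6 evening genes were higher, and TOC1, ELF3 and PRR3 were not called (adjusted p = 0.354, 0.091 and 0.0682). PRR9, on a probe set shared between genes, ZTL and FKF1 were not called.

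**Figure D3:**
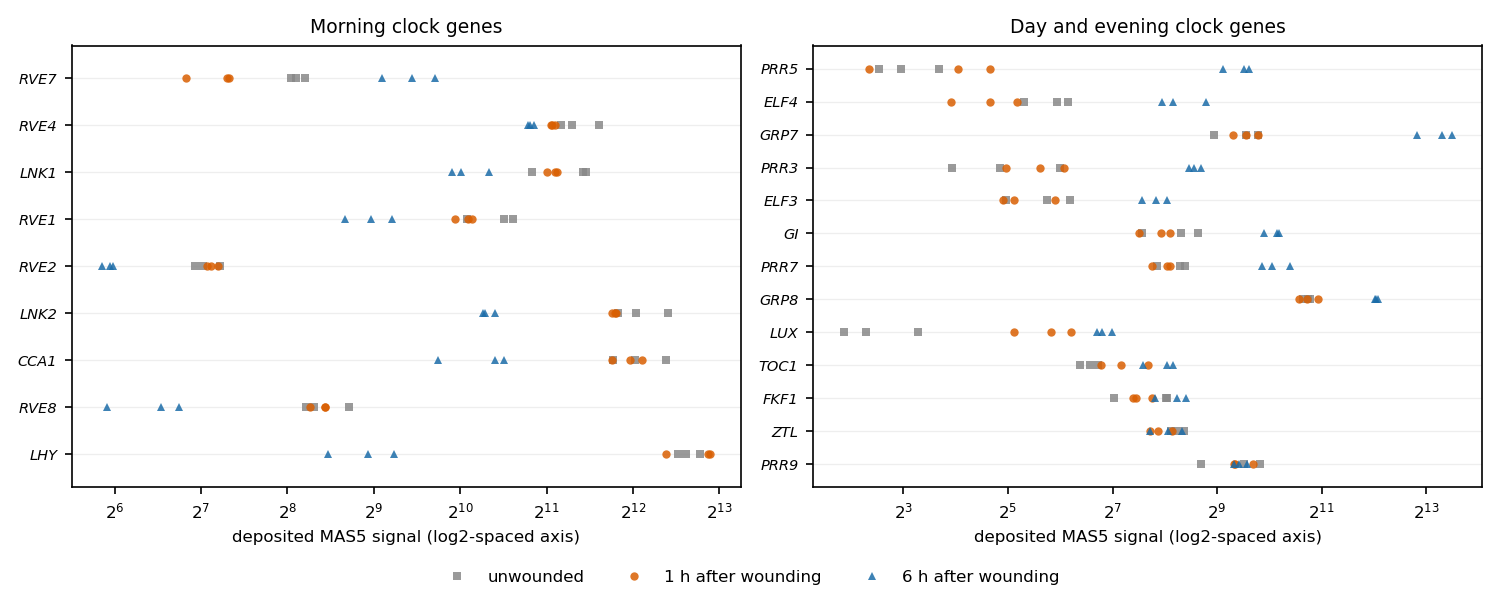
Deposited signal on each Col-0 array (log2-spaced horizontal axis) for 9 morning and 13 day and evening clock genes, ordered by their difference, with squares for unwounded, circles for 1 h and triangles for 6 h. Triangles lie to the left of circles for 7 called morning genes and to the right for 9 called evening genes, while squares mostly share the range of circles.

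Of 9 flowering-time genes 2 were higher and 3 lower, against 26% and 17.8% of all probe sets. SOC1, a MADS factor that promotes flowering, read 354, 322 and 374 at 1 h, 1101, 1363 and 1267 at 6 h and 363, 333 and 269 in unwounded leaves and rose by 1.83 ± 0.15, and SVP, a MADS repressor, rose by 1.09 ± 0.22. The AP2 repressor TOE1 fell by 1.11 ± 0.21 and CDF2, a DOF repressor of CONSTANS, by 0.86 ± 0.21. FT differed by -1.02 ± 0.54 and was not called.

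Light signalling genes were also divided, with 6 of 18 higher and 6 lower, against 26% and 17.8% of all probe sets. PIF1, a bHLH factor that restrains chlorophyll synthesis in the dark, read 72.4, 33.3 and 38.1 at 1 h, 271, 219 and 248 at 6 h and 242, 165 and 86.6 in unwounded leaves and rose by 2.44 ± 0.37. Its unwounded arrays overlapped those at 6 h. The cryptochromes CRY2 and CRY1, blue light receptors, rose by 1.69 ± 0.14 and 1.27 ± 0.16, and PHYA, the far-red receptor, by 0.96 ± 0.19. ELIP2 (AT4G14690), an early light-induced protein of the thylakoid, read 969, 456 and 819.8 at 1 h, 87.6, 90.9 and 68.1 at 6 h and 812, 1188 and 934 in unwounded leaves and fell by 3.13 ± 0.25, and ELIP1 fell by 1.74 ± 0.22. HY5, a bZIP factor that promotes light responses, fell by 1.195 ± 0.29 and RUP2, which represses the UV-B receptor, by 1.67 ± 0.17. PHYB was not called at -0.45 ± 0.20. The genes that fell thus included UV-B and high-light transcripts, while the genes that rose included photoreceptors.

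Starch breakdown genes mostly rose. All 16 were tested and called, 13 higher and 3 lower, with a median of 2.36, and the direction and the counts were the same under quantile normalization and with array medians subtracted. PHS2 (AT3G46970), the cytosolic glucan phosphorylase, read 316, 263 and 278 at 1 h, 8007, 7134 and 6342 at 6 h and 475, 306 and 577 in unwounded leaves and rose by 4.65 ± 0.20 (limma adjusted p = 2.96e-08). GWD1 (AT1G10760), the glucan, water dikinase that phosphorylates starch to open it for attack, read 633, 642 and 708 at 1 h, 6330, 6042 and 5896 at 6 h and 589, 1088 and 1023 in unwounded leaves and rose by 3.204 ± 0.20. AMY3 (AT1G69830), a plastid alpha-amylase, read 356, 269 and 293 at 1 h, 3615, 2609 and 2955 at 6 h and 306, 384 and 348 in unwounded leaves and rose by 3.32 ± 0.16. In all 3 the 6 h arrays lay well above the others, and unwounded leaves overlapped those at 1 h.

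The other rising members included enzymes of several steps. The plastid phosphorylase PHS1 rose by 3.75 ± 0.14, the disproportionating enzymes DPE1 and DPE2 by 3.51 ± 0.22 and 3.15 ± 0.20, the debranching enzyme ISA3 by 3.16 ± 0.20, the glucan phosphatase SEX4 by 2.79 ± 0.25 and the second dikinase PWD by 1.93 ± 0.13. The maltose exporter MEX1 rose by 1.05 ± 0.16. LDA and LSF1 changed least among them, at 0.65 ± 0.14 (adjusted p = 0.0782 with all 18 arrays) and 0.78 ± 0.16. All 3 members that fell were of the beta-amylase family. BAM3 (AT4G17090), the main beta-amylase of the leaf plastid, read 14991, 18453 and 19924 at 1 h, 5800, 5521 and 5802 at 6 h and 12238, 16371 and 21787 in unwounded leaves and fell by 1.63 ± 0.18, BAM1 fell by 1.63 ± 0.21 and BAM9 by 2.46 ± 0.23. BAM5, an extraplastidic beta-amylase, rose by 1.44 ± 0.39, so the family was divided.

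Of 11 starch synthesis genes 4 were higher and 1 lower, against 26% and 17.8% of all probe sets, with a median of 0.41. GBSS1 (AT1G32900), the granule-bound synthase that makes amylose, read 15236, 17506 and 15437 at 1 h, 1994, 1478 and 2262 at 6 h and 13596, 14241 and 17664 in unwounded leaves and fell by 3.09 ± 0.16. Its unwounded and 1 h arrays overlapped. The branching enzymes SBE2.1 and SBE2.2 rose by 1.26 ± 0.25 and 0.55 ± 0.11 and the soluble synthase SS1 by 0.64 ± 0.13. With all 18 arrays 2 synthesis genes were higher and SBE2.1 was not called (adjusted p = 0.0603). APL1 and ADG1, subunits of ADP-glucose pyrophosphorylase, were not called at 0.104 ± 0.11 and 0.13 ± 0.13.

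Genes known to rise when leaf sugar runs low were mostly higher, 9 of 14, with 1 lower and a median of 1.05. DIN10 (AT5G20250), a raffinose synthase-like gene induced in the dark, read 656, 611 and 745 at 1 h, 3129, 4172 and 2666 at 6 h and 2114, 565 and 209 in unwounded leaves and rose by 2.29 ± 0.58. ASN1 (AT3G47340), an asparagine synthetase repressed by sugar and light, read 179, 70.5 and 53.5 at 1 h, 433, 380.3 and 379 at 6 h and 214, 154 and 50.98 in unwounded leaves and rose by 2.18 ± 0.50. The dark-inducible DIN1, a rhodanese-domain protein also called SEN1, read 279, 241 and 448 at 1 h, 1675, 2695 and 1405 at 6 h and 625, 328 and 199 in unwounded leaves and rose by 2.57 ± 0.37. All 3 were higher on each 6 h array than on any other array. TPS10, a trehalose phosphate synthase-like protein, rose by 1.79 ± 0.21. DIN9 fell by 1.76 ± 0.16. BT2 and TPS11 were not called.

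Most autophagy genes were higher, by small steps. Autophagy delivers cytoplasm and organelles to the vacuole, and ATG8 proteins coat the membrane that encloses them. Of 17 genes tested 12 were higher and 0 lower, with a median of 0.70, and 11 were higher under either other scaling. ATG8F (AT4G16520) read 2290, 2408 and 2138 at 1 h, 7538, 7720 and 6357 at 6 h and 4290, 2711 and 2818 in unwounded leaves and rose by 1.66 ± 0.17. ATG8E (AT2G45170) read 433, 253 and 204 at 1 h, 904, 1225 and 838 at 6 h and 883, 322 and 168 in unwounded leaves and rose by 1.79 ± 0.47. The 6 h arrays of ATG8F were the highest of the 9, while those of ATG8E overlapped the unwounded ones. NBR1, a receptor that brings cargo to ATG8, rose by 1.04 ± 0.16, and ATG3, which conjugates ATG8 to lipid, by 1.01 ± 0.14. ATG5, ATG6, ATG7, ATG18A and ATG8B were not called.

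**Figure D4:**
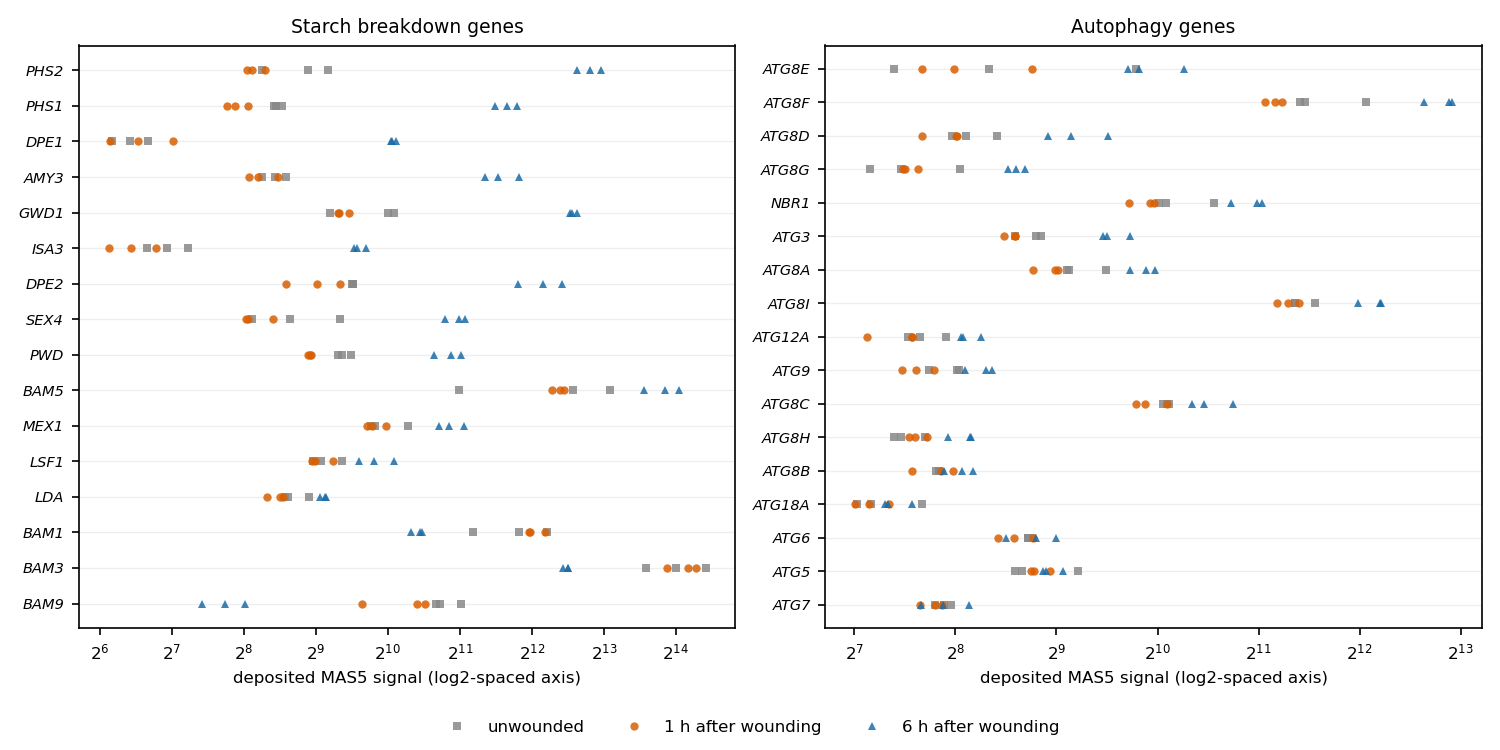
Deposited signal on each Col-0 array (log2-spaced horizontal axis) for 16 starch breakdown genes and 17 autophagy genes, ordered by their difference, with squares for unwounded, circles for 1 h and triangles for 6 h. Triangles lie far to the right of circles for most starch genes and to the left for BAM1, BAM3 and BAM9, and the autophagy genes are shifted to the right by less.

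Proteasome genes rose in part and ribosomal protein genes fell in part, by small amounts. Of 55 genes annotated to the proteasome, the complex that degrades proteins tagged with ubiquitin, 29 were higher and 1 lower, against 26% and 17.8% of all probe sets. Their median was 0.44, and 30 and 22 were higher after quantile normalization and with array medians subtracted. RPT2a, an ATPase of the regulatory particle, read 1067, 1080 and 1110 at 1 h, 2712, 2572 and 2611 at 6 h and 1164, 1078 and 1576 in unwounded leaves and rose by 1.28 ± 0.14. The 6 h arrays did not overlap those at 1 h, which shared the range of unwounded leaves. Of 203 genes for proteins of the cytosolic ribosome, 0 were higher and 100 lower, with a median of -0.38. The number lower was 69 after quantile normalization and 161 with array medians subtracted, and 56 in the model of all 18 arrays. It was 61 without 1 h array C, 51 without 6 h array A and 54 without 6 h array B. The changes were small, with 2 genes lower by at least 2-fold, AT1G80750 (fell by 1.21 ± 0.20) and AT5G67510 (fell by 1.12 ± 0.15), both named after their values were seen.

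Photosynthesis genes changed little. Of 26 photosystem and light-harvesting genes, 10 were higher and none lower with the deposited scaling, but 7 were higher after quantile normalization, and 3 were higher and 1 lower with array medians subtracted. The number higher was 16 with array weights, 3 with no filter and 6 without 1 h array B. Their median of 0.27 compares with 0.13 over all probe sets. The largest change was that of plastocyanin PETE1, which rose by 0.97 ± 0.21. Chlorophyll synthesis genes were spread wide, with PORB highest. PORA (AT5G54190) was dim at 1 h and at least 3.09-fold higher at 6 h (27.2 ± 16.1 and 226 ± 75.4, limma adjusted p = 0.00159), while the third member PORC rose by 0.93 ± 0.13. HEMA2, a glutamyl-tRNA reductase at the start of the pathway, fell by 2.15 ± 0.19, whereas HEMA1 was not called at 0.25 ± 0.26. Magnesium chelatase genes CHLI1, CHLD and GUN5 were not called.

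Of 7 chlorophyll breakdown genes 4 were higher and 1 was lower. NYC1, which reduces chlorophyll b, read 986, 645 and 806 at 1 h, 3556, 3608 and 3394 at 6 h and 1337, 1362 and 1325 in unwounded leaves and rose by 2.14 ± 0.15, and PAO, which opens the ring, and ACD2, the next enzyme, rose by 0.91 ± 0.17 and 1.01 ± 0.11. NYE1, the magnesium dechelatase also called SGR1, fell by 0.92 ± 0.18. In the carotenoid pathway the beta-carotene hydroxylases fell. BCH2 (AT5G52570) read 6156, 4255 and 4900 at 1 h, 643, 418 and 536 at 6 h and 3868, 4636 and 6334 in unwounded leaves and fell by 3.27 ± 0.21, and BCH1 fell by 1.94 ± 0.14. NPQ1 (AT1G08550), the violaxanthin de-epoxidase that acts downstream of them in strong light, read 365, 409 and 461 at 1 h, 2681, 2867 and 2263 at 6 h and 703, 546 and 397 in unwounded leaves and rose by 2.66 ± 0.20. BCH2 was lowest and NPQ1 highest on the 6 h arrays. PSY, the entry enzyme, and PDS3 were not called.

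Most jasmonate genes were lower. Against 17.8% of all probe sets, all 10 JAZ repressors were lower (median -2.23), as were 9 of 13 synthesis genes and 5 of 6 genes that inactivate or modify the hormone. Of the last group 3 were lower with all 18 arrays, where CYP94B3 and JMT lost their call (adjusted p = 0.0975 and 0.0531). The P450 enzymes CYP94B1 and CYP94C1 oxidise jasmonoyl-isoleucine. CYP94B1 (AT5G63450) fell by 4.53 ± 0.25. CYP94C1 (AT2G27690) read 4393, 4695 and 4807 at 1 h, 306, 211 and 243 at 6 h and 1364, 1555 and 2248 in unwounded leaves and fell by 4.21 ± 0.19, and its 6 h arrays were below the unwounded ones. ST2A (AT5G07010), a sulfotransferase of hydroxyjasmonate, read 504, 219.7 and 296 at 1 h, 4601, 5766 and 4786 at 6 h and 229, 433 and 544 in unwounded leaves and rose by 3.97 ± 0.32 (limma adjusted p = 1.87e-06). The synthesis genes AOC4 and LOX2 also rose, by 1.41 ± 0.20 and 0.69 ± 0.13, and AOC3, a close relative of AOC4, read 7133, 7808 and 7192 at 1 h, 514, 347 and 506 at 6 h and 1712, 2713 and 3784 in unwounded leaves and fell by 4.04 ± 0.24. AOS was close to the threshold at -0.35 ± 0.12 and was not called after quantile normalization (adjusted p = 0.0808) or without any one of the 6 compared arrays (adjusted p = 0.0505 to 0.121). The same held for AOS with the replicate letter as a block, no filter, no variance trend and all 18 arrays (adjusted p = 0.0565, 0.126, 0.0772 and 0.191).

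Defence proteins downstream of jasmonate went both ways, 6 of 12 higher and 4 lower. NATA1 (AT2G39030), an acetyltransferase that makes acetylornithine, read 2643, 1756 and 1196 at 1 h, 14679, 14973 and 13918 at 6 h and 2650, 1791 and 2248 in unwounded leaves and rose by 3.04 ± 0.24. RNS1 (AT2G02990), a ribonuclease induced by wounding, read 1648, 697 and 1039 at 1 h, 6189, 5731 and 5859 at 6 h and 306, 814 and 1140 in unwounded leaves and rose by 2.48 ± 0.40. VSP1, a vegetative storage protein measured by a probe set shared between genes, read 6543, 4570 and 3562 at 1 h, 29220, 23279 and 24852 at 6 h and 5376, 3204 and 6913 in unwounded leaves and rose by 2.44 ± 0.26. In all 3 genes the 6 h arrays were above every 1 h and unwounded array. TI1, a trypsin inhibitor, and CORI3, a cystine lyase, rose by 1.599 ± 0.17 and 1.38 ± 0.17. TPS04 (AT1G61120), a terpene synthase for the volatile TMTT, read 2716, 1474 and 1472 at 1 h, 309, 241 and 134 at 6 h and 1790, 1693 and 1969 in unwounded leaves and fell by 3.07 ± 0.29, and the factor MYC2 fell by 1.09 ± 0.19. PDF1.2 was not called at -0.09 ± 0.47.

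Of 16 MAP kinase cascade genes 11 were lower and 0 higher, against 17.8% and 26% of all probe sets. MAPKKK19 (AT5G67080), an upstream kinase, read 794, 596 and 523 at 1 h, 23.8, 45.4 and 5.9 at 6 h and 313, 463 and 469 in unwounded leaves and was at least 7.85-fold lower (limma adjusted p = 1.63e-05; 638 ± 140.3 at 1 h and 25.1 ± 19.8 at 6 h). MAPKKK15 (AT5G55090) was at least 3.2-fold lower (258 ± 41.2 and 15.7 ± 12.9, limma adjusted p = 0.00166). MAPKKK19 was lower on every 6 h array than on any unwounded array. For MAPKKK15 the signals of unwounded arrays B and C (61.2 and 46.6) were dim, like all its 6 h signals. Those unwounded signals therefore cannot be placed above the 6 h ones, and only unwounded array A (97.2) was not dim. MAPKKK18, MAPKKK14 and MAPKKK17 fell by 2.59 ± 0.36, 2.39 ± 0.22 and 2.23 ± 0.34, the kinases MKK4, MKK5 and MKK9 by 1.31 ± 0.23, 1.27 ± 0.17 and 1.15 ± 0.22, and MPK11 by 1.35 ± 0.17. The terminal kinases MPK3, MPK4 and MPK6 were not called, at 0.02 ± 0.14, -0.17 ± 0.12 and -0.100 ± 0.14. The phosphatase AP2C1, which acts on MPK4 and MPK6, fell by 2.79 ± 0.20 on a probe set shared between genes.

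Receptors of wound peptides fell in part. PEPR1 (AT1G73080), a receptor kinase for the Pep danger peptides, read 1843, 2222 and 2095 at 1 h, 159, 164 and 159 at 6 h and 426, 609 and 599 in unwounded leaves and fell by 3.67 ± 0.16. No other array was as low as those of 6 h. The precursor PROPEP1 and the glutamate receptor-like channels GLR3.3 and GLR3.6, which carry the electrical signal between leaves, were not called, at -0.07 ± 0.25, 0.01 ± 0.14 and 0.49 ± 0.23. Of 10 immune receptor genes 1 was higher and 4 were lower, against 26% and 17.8% of all probe sets. With all 18 arrays, or without 1 h array B or 6 h array C, 2 were lower. SOBIR1 fell by 1.53 ± 0.20 and WAK2, a wall-associated kinase, rose by 0.95 ± 0.24. FLS2 and EFR, receptors of bacterial peptides, were not called. Of 12 touch and calcium genes 11 were lower, of which CML12 fell by 3.01 ± 0.14, and CML41 was higher by 0.61 ± 0.19, a rise not called under either other scaling (adjusted p = 0.101 and 0.104) or without 1 h array C or 6 h array A or B (adjusted p = 0.0837, 0.0551 and 0.0784). With no filter and with all 18 arrays CML41 was not called either (adjusted p = 0.0518 and 0.285).

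Of 14 stress ERF genes 9 were lower and 2 higher, with a median of -1.96. ERF11 (AT1G28370) read 1184, 1304 and 1090 at 1 h, 202, 124 and 183 at 6 h and 443, 554 and 719 in unwounded leaves and fell by 2.84 ± 0.21. ERF2 and ERF4 fell by 2.83 ± 0.20 and 2.401 ± 0.23, and ERF13 was dim at 6 h and at least 7.34-fold lower (588 ± 36.3 and 45.9 ± 16.3, limma adjusted p = 7.6e-07). RAP2.6L, a factor of tissue reunion after cutting, rose by 1.03 ± 0.15. The number higher was 1 under either other scaling and without 1 h array B or C or 6 h array A or C. DREB2A was not called at -0.12 ± 0.26. All 7 C1-2i zinc finger genes tested were lower, with a median of -1.68.

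Heat shock genes mostly fell, 8 of 12, with 0 higher and a median of -1.04. The number higher was 1 with the replicate letter as a block, 16 added before log2, array weights or the 6 compared arrays alone. HSFA2 (AT2G26150), a heat shock factor, read 365, 545 and 319 at 1 h, 4.25, 39.9 and 27.03 at 6 h and 71.3, 322 and 516 in unwounded leaves and was at least 4.99-fold lower (limma adjusted p = 0.000628; 409.8 ± 119 at 1 h and 23.7 ± 18.1 at 6 h). HSP70 (AT3G12580) fell by 2.24 ± 0.39 and HSP101 by 1.75 ± 0.26, both chaperones. The 2 small heat shock genes that could be tested were not called.

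Of 14 auxin response genes 7 were lower and 0 higher (1 higher without 1 h array C or 6 h array B). IAA6 (AT1G52830), an Aux/IAA repressor of auxin response, read 611, 671 and 481 at 1 h, 123, 68.7 and 68.6 at 6 h and 214, 250.5 and 357 in unwounded leaves and fell by 2.804 ± 0.26. IAA5, IAA2 and IAA19 fell by 1.81 ± 0.38, 1.73 ± 0.18 and 1.23 ± 0.26. The cytokinin list was alike in sign, with 4 of 9 lower, among them the response regulators ARR7 and ARR15 (fell by 1.305 ± 0.13 and fell by 1.29 ± 0.23) and the cytokinin oxidases CKX4 and CKX5 (fell by 1.57 ± 0.18 and fell by 1.57 ± 0.25). ARR5, ARR8 and ARR9 were not called. Of 7 brassinosteroid genes 4 were higher and 1 was lower, the response factor BZR1, which fell by 0.697 ± 0.14. Those higher included the synthesis genes BR6OX2 (1.47 ± 0.24), CPD (1.27 ± 0.16) and DWF4 (0.88 ± 0.19).

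Of 12 gibberellin genes 2 were higher and 4 lower, against 26% and 17.8% of all probe sets. With the 6 compared arrays alone 4 were higher, and with the 60th percentile filter 1 was. GA2OX6 (AT1G02400), which inactivates gibberellin, read 4265, 4098 and 4538 at 1 h, 289, 376 and 500.1 at 6 h and 776, 1562 and 1616 in unwounded leaves and fell by 3.503 ± 0.26. The DELLA repressor gene RGL3 read 947, 678 and 874 at 1 h, 156, 138 and 168 at 6 h and 331, 393 and 612 in unwounded leaves and fell by 2.43 ± 0.22, and RGL1 fell by 0.999 ± 0.15, but RGA and GAI were not called. The receptor gene GID1A (AT3G05120) read 159.9, 232 and 198 at 1 h, 976, 1119 and 850.1 at 6 h and 179.6, 160.1 and 228 in unwounded leaves and rose by 2.33 ± 0.19, and its relative GID1C rose by 1.26 ± 0.34. The third receptor gene, GID1B, fell by 1.11 ± 0.35 (limma adjusted p = 0.0224), a call lost with all 18 arrays (adjusted p = 0.0721) and without 1 h array A or B or 6 h array B or C (adjusted p = 0.0519, 0.0834, 0.0627 and 0.0618). The synthesis genes GA20OX1 and GA3OX1 were not called.

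Of 23 abscisic acid genes 6 were higher and 9 lower, against 26% and 17.8% of all probe sets, and 12 were lower under either other scaling. NCED3 (AT3G14440), the main stress-induced synthesis enzyme, read 546, 942 and 697 at 1 h, 105.2, 108 and 94.2 at 6 h and 140.4, 152 and 327 in unwounded leaves and fell by 2.79 ± 0.29. The phosphatases HAI1, HAB1 and ABI1, which restrain the signal, fell by 2.02 ± 0.34, 1.99 ± 0.28 and 1.19 ± 0.27. RD26 (AT4G27410), a NAC factor of dehydration, read 15544, 15587 and 13195 at 1 h, 1755, 1606 and 1672 at 6 h and 6462, 10442 and 13320 in unwounded leaves and fell by 3.13 ± 0.21. The late embryogenesis gene RAB18 rose by 1.83 ± 0.29, and RD29A and RD29B were not called. Beside these, CBF3 (AT4G25480), a cold response factor, was dim at 1 h and at least 7.98-fold higher at 6 h (53.3 ± 12.3 and 568 ± 129, limma adjusted p = 3.15e-06), and its target COR15B rose by 2.65 ± 0.47. CBF2 was not called at 0.23 ± 0.36, and the dehydrin ERD10 fell by 1.92 ± 0.26.

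Of 12 ethylene synthesis and signalling genes 6 were lower and 1 higher, against 17.8% and 26% of all probe sets. With the 60th percentile filter 3 were lower. The synthesis genes ACS6, ACS2 and ACS8 differed by -1.34 ± 0.15, -1.15 ± 0.24 and -0.96 ± 0.23, while ACS4 was not called at 0.33 ± 0.55. The receptor gene ERS1 rose by 0.76 ± 0.22, a call lost with all 18 arrays (adjusted p = 0.0525) and without 1 h array A or 6 h array A (adjusted p = 0.0629 and 0.0697). In the salicylic acid list, 5 of 14 genes were higher and 3 lower, against 26% and 17.8% of all probe sets, with 2 higher under the 60th percentile filter. WRKY54 read 118, 46.2 and 86.6 at 1 h, 1080, 1070 and 555 at 6 h and 194, 118 and 298 in unwounded leaves. Its 6 h arrays stood above the others, and the unwounded and 1 h arrays overlapped. PAD4 and PBS3 rose by 0.93 ± 0.21 and 1.04 ± 0.27, while their partners in the same defence branch, EDS1 and CBP60G, fell by 1.12 ± 0.22 and 1.06 ± 0.19. PR1, PR2 and PR5, the usual markers of the salicylic acid response, were not called, at 0.97 ± 0.39, 0.66 ± 0.35 and 0.09 ± 0.22.

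Of 15 phenylpropanoid genes 8 were lower and 0 higher, with PAL2, a phenylalanine ammonia-lyase, at -1.76 ± 0.16, C4H at -1.297 ± 0.12 and 4CL3, the ligase of the flavonoid branch, at -1.78 ± 0.31. F3H (AT3G51240), a flavanone hydroxylase, read 2566, 1882 and 2043 at 1 h, 132, 153 and 195 at 6 h and 2371, 2827 and 2560 in unwounded leaves and fell by 3.77 ± 0.17. CHIL (AT5G05270), a chalcone isomerase-like protein, read 1187, 710.2 and 813 at 1 h, 28.2, 93.7 and 146 at 6 h and 1031, 1316 and 1070 in unwounded leaves and was 12.1-fold lower (standard error 0.45 on the log2 scale). The flavonol synthase FLS1 fell by 1.91 ± 0.31 and chalcone synthase CHS by 1.67 ± 0.23. In F3H and CHIL no 6 h array reached a 1 h or an unwounded one. PAP1, a MYB factor that turns on anthocyanin genes, rose by 1.41 ± 0.45 (limma adjusted p = 0.0226), and was not called with array medians subtracted (adjusted p = 0.0548) or without 1 h array B or C or 6 h array A (adjusted p = 0.057, 0.0898 and 0.0812), nor with all 18 arrays (adjusted p = 0.0722). It was the only one of 10 flavonoid genes called higher (2 were with array weights or without 6 h array C), and 6 were lower.

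The glucosinolate branches differed in their counts. Glucosinolates are the thioglucoside defences of the mustard family. The aliphatic list had 11 of 13 genes higher and 0 lower, 11 and 8 higher under the other scalings. MAM1, a chain-elongation enzyme, read 5722, 6286 and 6334 at 1 h, 17941, 17133 and 16033 at 6 h and 6860, 6133 and 8986 in unwounded leaves and rose by 1.48 ± 0.14. The indolic list had 3 of 16 higher and 8 lower. MYB34, a factor of the indolic branch, fell by 1.76 ± 0.25, and the synthesis enzymes CYP79B3 and CYP83B1 fell by 1.09 ± 0.20 and 1.03 ± 0.17. The ring-modifying P450 genes parted. CYP81F4 (AT4G37410) read 128, 37.8 and 75.05 at 1 h, 963, 599 and 242 at 6 h and 177, 89.8 and 83.02 in unwounded leaves and rose by 2.86 ± 0.52, while CYP81F2 was dim at 6 h and at least 1.1-fold lower (91.9 ± 35.3 and 12.8 ± 8.7, limma adjusted p = 0.00605). The difference between the branches was not tested.

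Surface and wall genes held some of the largest changes. All 6 lipid transfer genes tested were higher (median 2.52). Lipid transfer proteins are small secreted proteins that bind lipids. LTP3 (AT5G59320) read 253, 171 and 90.8 at 1 h, 4563, 4899 and 6918 at 6 h and 156, 230.4 and 393 in unwounded leaves and rose by 5.09 ± 0.37. LTP4 (AT5G59310) read 43.9, 118 and 94.1 at 1 h, 2526, 2807 and 3257 at 6 h and 117, 15.3 and 28.7 in unwounded leaves and rose by 5.18 ± 0.58. LTP2 rose by 3.14 ± 0.19, and EARLI1 and AZI1, which act in systemic immunity, by 1.899 ± 0.22 and 1.67 ± 0.27. No 6 h array of LTP3 or LTP4 came near the other groups. In wax synthesis CER1 (AT1G02205), which makes alkanes, read 177, 55.5 and 66.1 at 1 h, 478, 552 and 568 at 6 h and 116, 83.04 and 83.7 in unwounded leaves and rose by 2.62 ± 0.35, while the elongase KCS1 and the factor MYB96 fell by 1.58 ± 0.16 and 1.48 ± 0.19.

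Of 17 xyloglucan and expansin genes 4 were higher and 6 lower, against 26% and 17.8% of all probe sets. XTH18 (AT4G30280), a xyloglucan endotransglucosylase, read 1622, 1571 and 1357 at 1 h, 152, 125 and 108 at 6 h and 349.8, 253 and 277 in unwounded leaves and fell by 3.58 ± 0.17, and its neighbour XTH19 fell by 2.14 ± 0.23. EXPA8 (AT2G40610), an expansin that loosens walls, read 209, 192 and 223 at 1 h, 959, 1364 and 1346 at 6 h and 1157, 315 and 144 in unwounded leaves and rose by 2.54 ± 0.53, with a wide spread in unwounded leaves, and EXPA1 rose by 1.15 ± 0.29. Of 11 aquaporins, the water channels, PIP2;5 rose by 1.35 ± 0.24 and the others differed by less than 1 on the log2 scale.

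Nutrient and redox genes gave contrasts within families. Of 9 iron genes 5 were lower and 2 higher. Without 1 h array B 3 were lower and 1 higher, and without 1 h array C 3 were lower. bHLH39 (AT3G56980), a factor of the iron deficiency response, was dim at 6 h and at least 4.35-fold lower (412 ± 265 and 37.6 ± 18.1, limma adjusted p = 0.000231). The ferritin gene FER1, an iron store, was not called at 0.92 ± 0.53. Nitrate assimilation genes NIR1 fell by 0.88 ± 0.17 and NIA2 fell by 0.795 ± 0.16 (adjusted p = 0.088 with all 18 arrays), while NIA1 was not called at -0.06 ± 0.29. The catalases, which break down hydrogen peroxide, went apart. CAT1 (AT1G20630) read 166, 173 and 175 at 1 h, 1642, 1364 and 1314 at 6 h and 251, 160.4 and 197 in unwounded leaves and rose by 3.06 ± 0.17. CAT3 (AT1G20620) read 3063, 3375 and 4121 at 1 h, 19438, 17384 and 16371 at 6 h and 6008, 4206 and 5086 in unwounded leaves and rose by 2.34 ± 0.15. CAT2, the main catalase of photosynthetic leaf cells, read 25015, 27739 and 25898 at 1 h, 17091, 12624 and 14747 at 6 h and 31652, 27260 and 29074 in unwounded leaves and fell by 0.83 ± 0.12. The 1 h and 6 h arrays of all 3 catalases did not overlap. VTC5 and VTC2, which commit sugar to ascorbate, fell by 1.79 ± 0.23 and 1.03 ± 0.12.

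Large families were counted by symbol. Over all probe sets 26% were higher and 17.8% lower. Of 41 WRKY genes tested 8 were higher and 16 lower, and of 33 NAC genes 7 and 12. Of 40 UDP-glycosyltransferases 9 were higher and 13 lower, and of 31 glutathione transferases 9 and 9. Among the cytochrome P450 genes tested, 34 were higher, 23 lower and 44 not called. The array held 213 P450 genes, but only those tested compare with the shares over all probe sets. The WRKY genes higher were 5 under either other scaling and with the 60th percentile filter, and the NAC genes higher were 1 with that filter. The members named here were chosen after their values were seen, and in some of the families other members changed more. NAC032 fell by 3.34 ± 0.29 and ATAF1 by 3.21 ± 0.23, while NAC1 rose by 1.99 ± 0.32 and NAC047 by 1.82 ± 0.21. GSTU6 fell by 2.83 ± 0.23, and GSTU20 rose by 1.25 ± 0.12. Among glycosyltransferases UGT76E12 fell by 2.86 ± 0.35 and UGT74F2, which glucosylates salicylic acid, rose by 2.12 ± 0.27. CYP71B26 rose by 2.61 ± 0.17.

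**Figure D5:**
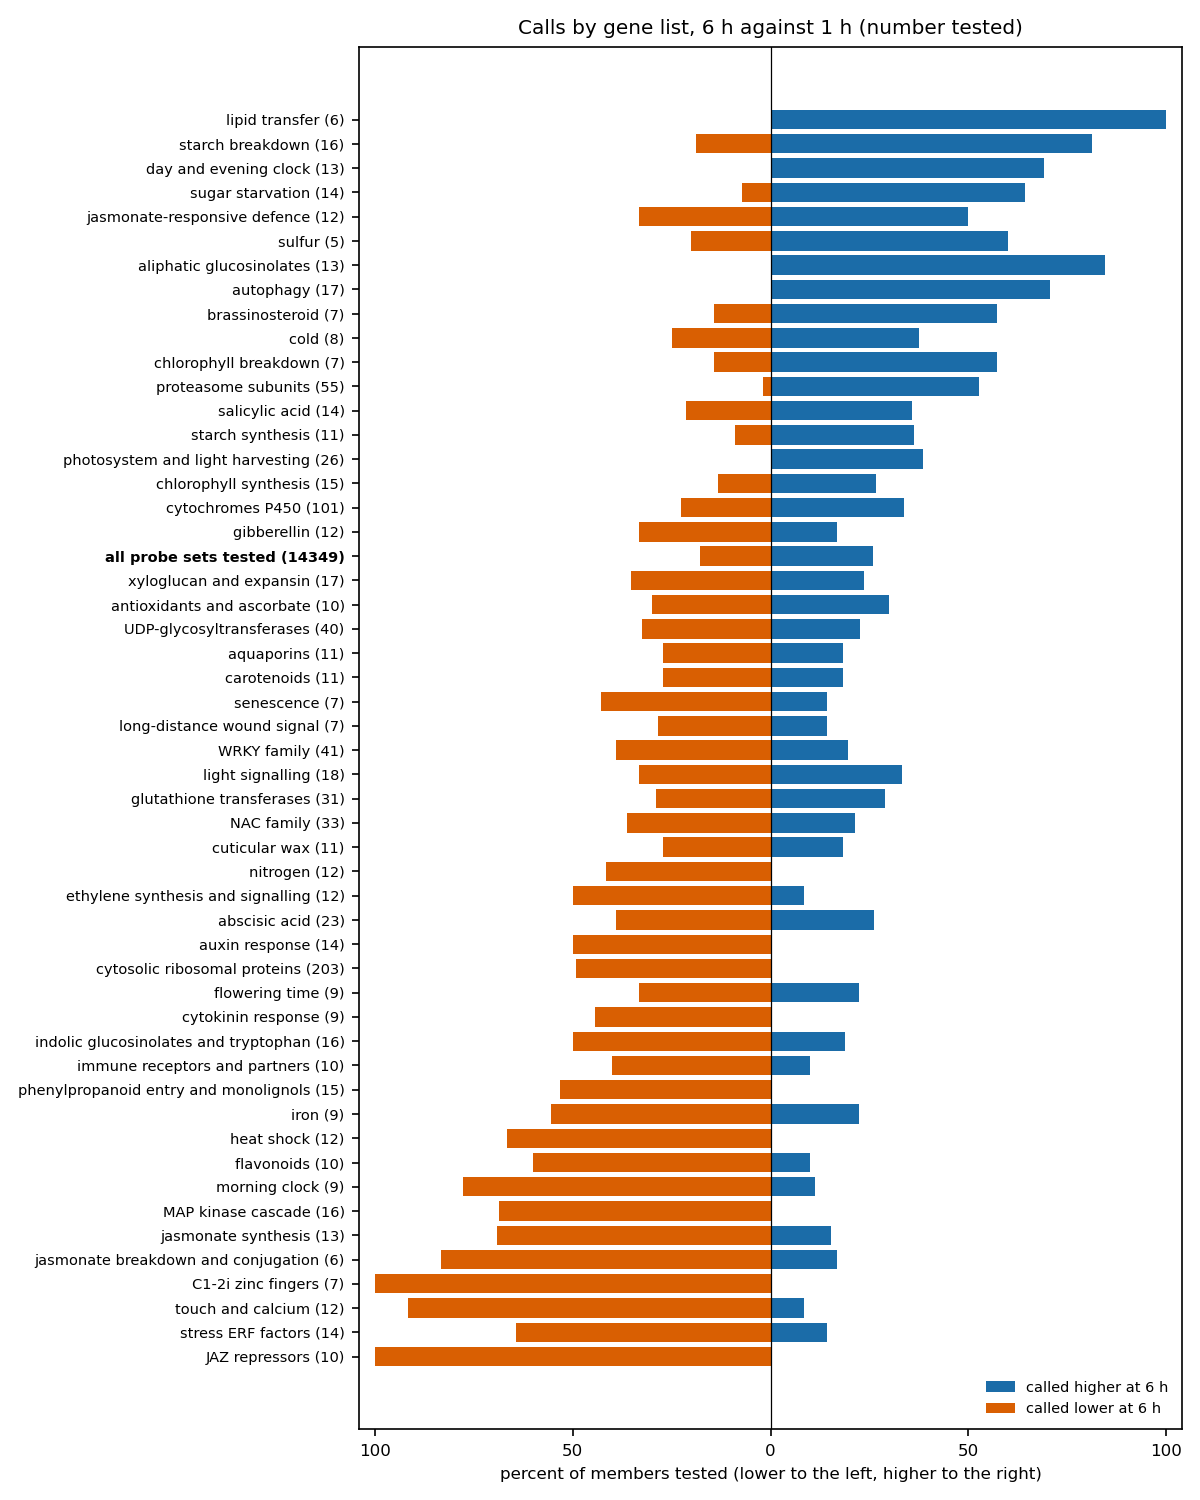
Percent of the tested members of each list called lower (bars to the left) or higher (bars to the right) at 6 h, ordered by the list's median log2 difference, with the number tested in brackets and all 14349 probe sets in bold. Starch breakdown, day and evening clock and lipid transfer genes lie at the higher end, and JAZ repressors, stress ERF factors and touch and calcium genes at the lower end.

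Marker genes of leaf cell types were read beside these results. In whole leaves, fewer cells of a type and less RNA per cell cannot be told apart. The summed signal of 4 mesophyll markers was 131000 to 142000 at 1 h and 136200 to 138500 at 6 h. GAPB fell by 0.31 ± 0.10, a call lost without 1 h array A or C or 6 h array A (adjusted p = 0.066, 0.0954 and 0.112) and with no filter, no variance trend or all 18 arrays (adjusted p = 0.213, 0.0721 and 0.137), and the other 3 were not called. Of 7 guard cell markers on the array 4 were tested, and the summed signal of the 7 was 753.3 to 864.2 at 1 h and 1367 to 1578 at 6 h. That rise lay mostly in the potassium channel KAT1 (AT5G46240), which read 219.6, 184 and 242 at 1 h, 726, 722 and 775 at 6 h and 231, 403 and 318 in unwounded leaves and rose by 1.79 ± 0.19, while FMA and MYB60 were not called and SLAC1 was below the 40th percentile on all 9 arrays. Of 6 phloem markers SWEET12, a sucrose exporter, rose by 1.65 ± 0.29 and the other 5 were not called. The summed phloem signal was 17260 to 20390 at 1 h, 20700 to 22530 at 6 h and 17820 to 21920 in unwounded leaves, so 1 h and 6 h did not overlap. After quantile normalization, with array weights or with the 6 compared arrays alone 3 phloem markers were higher, with the 60th percentile filter 2 were, and with array medians subtracted 1 was lower. All 5 flower markers were below the 40th percentile on all 9 arrays. Of 4 root markers IRT1 was below it on all 9, and PYK10 (AT3G09260), a beta-glucosidase of roots and ER bodies, read 69.6, 45.04 and 39.95 at 1 h, 1112, 158 and 404 at 6 h and 159, 17.56 and 48.5 in unwounded leaves and rose by 3.05 ± 0.75. That call was lost with all 18 arrays (adjusted p = 0.074). No root marker was called higher with all 18 arrays or with the 60th percentile filter, and 2 were without 1 h array C. The 6 h arrays of PYK10 were spread widely, and the part of other tissue in the results was not tested.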

How the data were processed

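The 9 wild-type arrays (ATH1, Affymetrix, 1 colour) held leaf RNA of Col-0, with 3 arrays for unwounded plants, 3 for 1 h and 3 for 6 h. The authors deposited linear signal intensity computed by MAS5, as named in the submitters' processing notes, and its version is not given in the sources used here. The values show that the authors scaled every array to a mean of 500 after trimming 2% at both ends. Of 22810 probe sets, 64 were controls and 22591 had a locus in the deposited platform annotation. Symbols were found for 22310 of these in a RefSeq table, and 1034 have names that mark shared probes. Another 90 value columns, detection calls included, were left out because no sample could be read from their names.

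Analysis was on log2 of the deposited signal. Probe sets that reached the 40th percentile of an array on 3 or more of the 9 arrays were tested, 14349 in all. The test was limma 3.58.1 under R 4.3.3, with a mean for each group, 6 residual degrees of freedom and a variance trend, and Benjamini-Hochberg adjustment ran over the 14349, with calls at an adjusted p below 0.05. In data simulated over 14349 probe sets with independent normal noise, only 100 were changed by log2 1 and 100 by log2 2. Of these changes 72 and 94 were recovered, and 3.49% of calls were false. The real arrays gave 6276 calls. Recovery and the false share depend on how many probe sets change, so these figures do not carry over to the real comparison. Where every array of a group was under the 40th percentile, the fold is a lower bound taken against that percentile on each array. The number of arrays limits the precision.

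Named genes were the 15 highest and 15 lowest with an adjusted p below 0.05, a log2 difference of at least 1, unshared probes and no overlap of arrays (for several probe sets of a gene, the brightest), plus members of 50 lists. Of 642 list entries, 624 matched a RefSeq gene by locus and symbol together and 600 were on the array. The comparison and the lists were chosen with earlier results of these data known, so no list was tested as a set. The 7 families were taken by symbol, except ribosomal proteins and proteasome subunits, which came from gene ontology terms of the platform annotation because gene titles were mostly empty. The ribosomal family was narrowed by its function term, and the P450 symbol pattern corrected, after values had been seen. List members whose call was lost in an alternative were counted in their lists, and several of them were left unnamed after their values had been seen. Pentatricopeptide genes and promoter windows were not analysed here. The settings changed in turn were a block for the replicate letter, the scaling (quantiles equalised, or array medians subtracted), 16 added before log2, the filter (none, or the 60th percentile), the variance trend, array weights, the arrays in the model (the 6 compared, or all 18) and the removal of each compared array.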

Additional observations from a re-analysis of the deposited data

How the results depend on the processing

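The 30 genes with the largest changes kept their direction and their call in every alternative that tested them (26 under the 60th percentile filter, 30 in each other). After subtraction of each array's median, 2466 probe sets were higher and 41% of calls were higher, against 3726 and 59.4% with the deposited scaling, and 3553 against 2550 were lower. The total was 6019 there, and every alternative left the number of calls within 1.5 times of 6276. Without any one of the 6 compared arrays, calls numbered 5176 to 5565, of which 3037 to 3263 were higher and 2107 to 2362 lower, with 1442 to 1524 higher and 1128 to 1236 lower by at least 2-fold and 57.1% to 60% of calls higher. With the replicate letter as a block 6224 probe sets passed, 3696 higher and 2528 lower. Arrays of different groups with the same letter deviated together little (r from -0.074 to 0.101 over 9 pairs, against -0.185 to 0.162 over 18 pairs with different letters), so the letters are not taken to pair the samples. Of 369 genes called among the named genes and list members, none changed direction in any alternative. The call was lost for 4 under the block, 20 with quantiles equalised, 26 with array medians subtracted, 30 with no filter, 47 with all 18 arrays and 19 to 39 without 1 array. Signals below the 40th percentile give only bounds, and changes near the shift of the median (0.13 on the log2 scale) depend on the scaling.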
